A study of Mus musculus with 8 samples.

Results

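The genes described here are the potassium channel genes of the mouse, read as the protein-coding genes whose symbol begins with *Kcn*, with *Kcnj8* and *Kcnj13* left out. They number 92 of the 56691 genes in the count table, of which 21630 are protein coding. A further 5 long non-coding RNA genes with a *Kcn* symbol were not included. Bulk RNA-seq of frozen cerebellum was compared between *Atm*-KO mice (ATM -/-, a whole-body null of the kinase ATM, the gene mutated in ataxia-telangiectasia) and their *Atm*-WT littermates (ATM +/+). Both genotypes came from heterozygous crosses of the strain B6;129S4-Atmtm1Bal/J, and the study's list of its data gives their age as 6 months, with no treatment named in the labels. The *Atm*-WT libraries are named 2M, 7M, 13M and 32M and the *Atm*-KO libraries 1M, 7F, 11M and 12M, and values below follow this order. The names do not explain the letters M and F. The study drew on mice of both sexes, and the names alone do not establish the sex behind each library. The libraries of a genotype are described as biological replicates, although the labels themselves do not tie a library to an animal.

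Potassium channels let potassium ions leave or enter the cell and so set the resting potential and bring the membrane back after an action potential. Voltage-gated channels of the Kv1, Kv3 and Kv4 families shape spikes in the axon, the soma and the dendrites, inward rectifiers and two-pore-domain (K2P) channels hold the resting potential, and calcium- and sodium-activated channels follow the ions that enter during activity. In the cerebellum, Kv3 channels are known for the fast firing of Purkinje cells, Kv1 channels for the basket cell endings on them, Kv4 and K2P channels for granule cells, and the inward rectifier Kir4.1 for potassium uptake by astrocytes.

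The pore is the part that the channel families share, and its selectivity filter is the stretch at which potassium is told apart from sodium. It is shown here because it separates the pore-forming from the auxiliary members of the list by sequence alone, without any measured value. In the coding sequence of each gene (GRCm39 genome, GENCODE vM39 canonical transcript) a match was 5 codons for threonine or serine, then a residue from the set valine, isoleucine, methionine, leucine, glutamine, threonine, alanine and cysteine, then glycine, then tyrosine, phenylalanine or leucine, then glycine. All 75 members of the pore-forming families held a match, and none of the 17 auxiliary members did. The 61 pore-forming genes outside the K2P family held exactly 1 each, whereas 13 of the 14 K2P genes, whose subunits carry a pair of pore loops, held 2. These counts depend on how the pattern was written. It allows residues that only some members carry, such as serine in *Kcnh1* and leucine in *Kcnk1*. Each line below gives 27 bases of coding sequence, 5′ to 3′ on the gene's strand, with the 5 filter codons in capitals, for genes of several families, among them those that the results turn on.

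Kcna1 (Kv1, chr6:126619185-126619211, minus strand): atgaccACTGTGGGATACGGTgacatg
Kcng4 (silent Kv, chr8:120352643-120352669, minus strand): atgacgACCGTGGGCTATGGGgacatg
Kcnh1 (EAG, chr1:192020056-192020082, plus strand): ctcaccAGTGTGGGCTTTGGTaacatt
Kcnma1 (BK, chr14:23578475-23578501, minus strand): atgtctACAGTGGGTTATGGGgacgtt
Kcnt1 (sodium-activated, chr2:25784373-25784399, plus strand): ttctcaACTGTGGGCTTCGGTgatgtg
Kcnj10 (inward rectifier, chr1:172196863-172196889, plus strand): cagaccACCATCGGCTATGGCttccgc
Kcnk1 (K2P, second match, chr8:126752062-126752088, plus strand): ctgagcACCATCGGCCTGGGGgactat

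Each of these windows lies within 1 coding exon. The first match of a K2P gene was divided by an intron in 13 of 14 genes, the second in 0 of 13, and the single match of the other pore-forming genes in 3 of 61, which were the 3 Kv4 genes *Kcnd1*, *Kcnd2* and *Kcnd3*. In *Kcnk1* the first match therefore spans chr8:126722541-126751764. The undivided first match was the only match of *Kcnk2*, at residue 244 of 404 in coding exon 5. It counts as a first match only because no other was found. The second matches of *Kcnk10* (residue 273) and *Kcnk4* (residue 259) also lie in coding exon 5.

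The 8 libraries held between 65967130 and 88030300 counts, and the potassium channel genes took 0.677 to 0.736% of them. The granule cell marker *Gabra6* lay between 535 and 707 CPM (counts per 1000000, scaled by trimmed mean of M-values, TMM) and the Purkinje cell marker *Calb1* between 926 and 1150 CPM, while the hindbrain genes *Hoxb5* and *Hoxc4* lay at or below 0.11 CPM. *Atm* itself lay between 59.0 and 80.0 CPM in the *Atm*-WT libraries and between 41.1 and 51.1 CPM in the *Atm*-KO libraries, with a log2 fold change of −0.66 ± 0.10 (SE, adjusted p = 0.0775). *Atm*-WT library 32M and *Atm*-KO library 12M stood apart from the other libraries of their genotype in several of the values below, and results that moved with them are also given without one or the other.

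Of the 92 members, 82 had enough counts to be tested. The other 10 were *Kcna7*, *Kcna10*, *Kcnj1*, *Kcnj15*, *Kcnk7*, *Kcnk16*, *Kcnk18*, *Kcne1*, *Kcne3* and *Kcnmb3*, none of which exceeded 22 counts in any library, and *Kcnk16* had 0 counts in all 8. For these genes a difference was not detectable at this depth.

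Levels of different genes are compared here as CPM per kb of exon, averaged over the 8 libraries. High levels were found for *Kcnd2* (Kv4.2) at 73.0, *Kcna1* (Kv1.1) at 71.1, *Kcnc1* (Kv3.1) at 64.0, *Kcna2* (Kv1.2) at 63.2, *Kcnk1* (TWIK-1) at 55.4 and *Kcnj10* (Kir4.1) at 53.6. *Kcnj3* (a G-protein-gated GIRK subunit) stood at 34.7. With the SDs of about 3 to 10 within a genotype, neighbours such as *Kcnd2* and *Kcna1*, or *Kcnc1* and *Kcna2*, did not differ beyond their spread. The order also depends on the length used. Per kb of the longest transcript, *Kcna1* stood at 84.3 and *Kcnc1* at 81.3, above *Kcnd2* at 73.0. By family, the Kv1 genes held 17.6% of the summed level, the Kv3 genes 17.4%, the inward rectifiers 15.0%, the K2P genes 11.5% and the Kv4 genes 10.1%. Among calcium- and sodium-activated genes *Kcnma1* (the BK pore) led at 34.1 and *Kcnt1* stood at 24.1, and *Kcnn2*, which is the small-conductance channel of Purkinje cells, stood at 3.19. Of the auxiliary genes *Kcnip4*, a calcium-binding partner of Kv4 channels, led at 24.7.

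**Figure D1:**
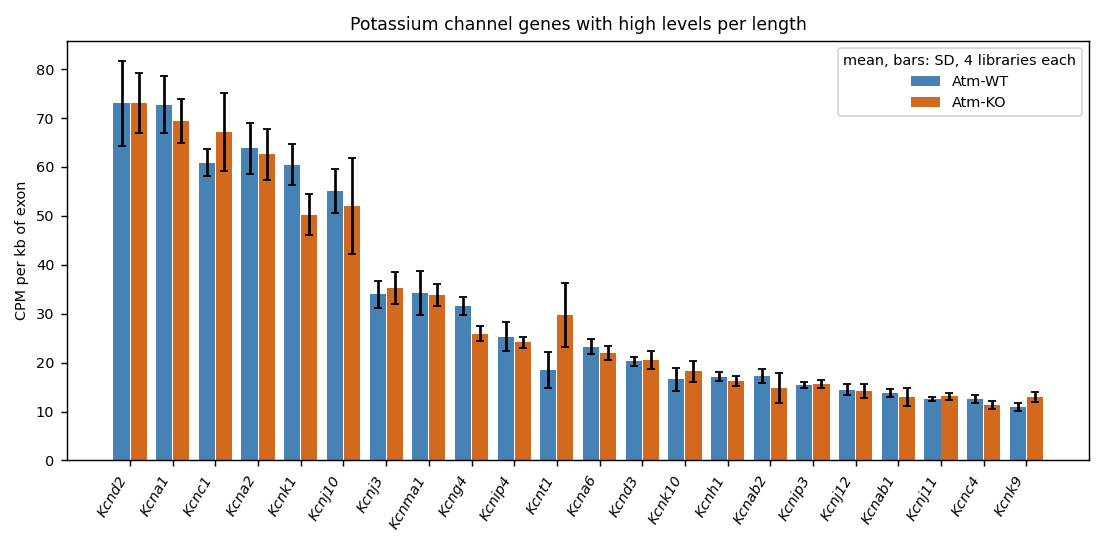
Mean level per exon length (CPM per kb, y axis) of 22 potassium channel genes with high levels, in *Atm*-WT (blue) and *Atm*-KO (orange) libraries, with bars for the SD over 4 libraries. *Kcnd2* and *Kcna1* stand at the left in both genotypes, and among the genes plotted *Kcnt1* had the widest relative gap between the genotypes.

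Between the genotypes, no potassium channel gene passed the test at an adjusted p under 0.05 (edgeR quasi-likelihood test, Benjamini-Hochberg over 22423 genes), against a background of 0.0178% of all genes tested. At an adjusted p under 0.1 the members were 2 of 82, *Kcnt1* and *Kcng4*, against 1.90% of all genes, but this count was 0 in 7 of the 8 fits that left out 1 library and 5 without 7F. At an unadjusted p under 0.05, 2 members were higher in *Atm*-KO (*Kcnt1* and *Kcnk9*), which is 2.44% of those tested against 11.7% of all genes and 7.003% of protein-coding genes. In the other direction 9 members were lower (among them *Kcna5*, *Kcne5*, *Kcng4*, *Kcnip1*, *Kcnk1*, *Kcnk2* and *Kcnk6*), which is 10.98% against 8.48% of all genes and 11.7% of protein-coding genes. The share of lower members was thus near that of protein-coding genes at large, and the split moved with the settings. There were 7 higher and 4 lower with a surrogate variable in the model, 7 and 6 with trends of GC content and length removed, 4 and 5 with library size alone, and 2 and 5 without 1M. All 4 *Atm*-KO libraries lay above all 4 *Atm*-WT libraries in 2 members, *Kcnt1* and *Kcnrg*, against 6.47% of all genes and 4.40% of protein-coding genes. They lay below in 3, *Kcna5*, *Kcng4* and *Kcnip1*, against 5.12% and 6.98%. DESeq2 passed 5 of the 81 members to which it gave an adjusted p (*Kcna5*, *Kcng4*, *Kcnip1*, *Kcnk1* and *Kcnt1*) at an adjusted p under 0.05, against 7.49% of all genes.

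**Figure D2:**
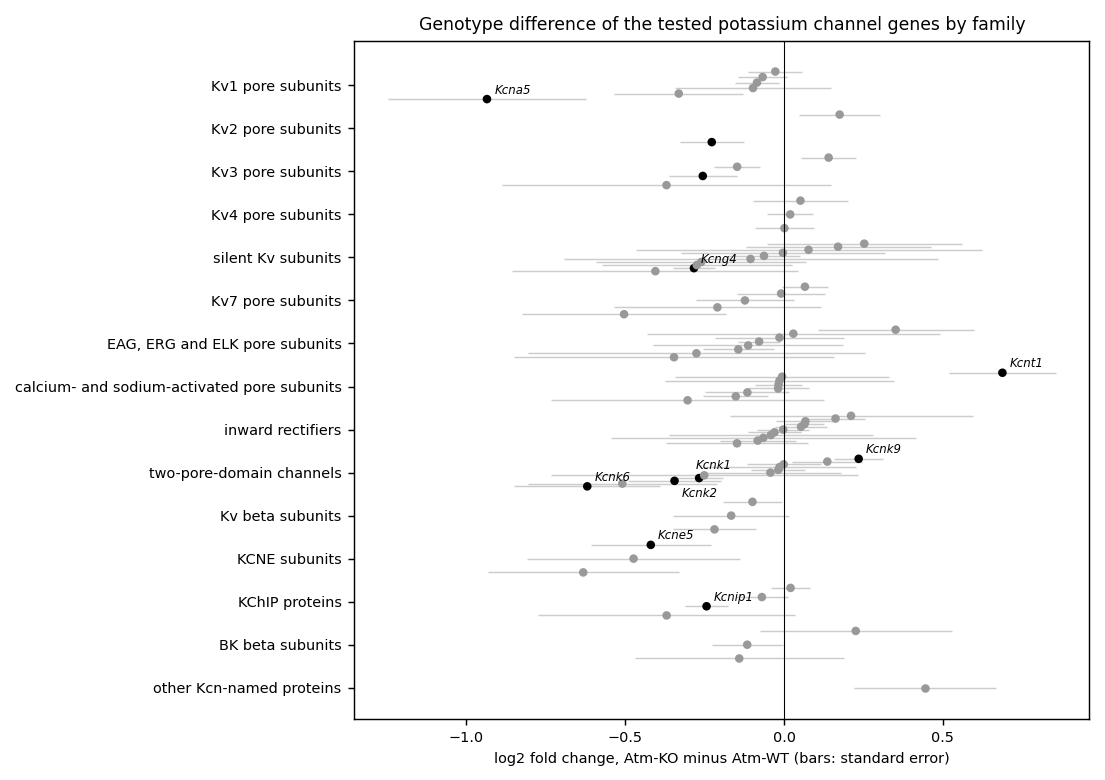
Log2 fold change (x axis, *Atm*-KO minus *Atm*-WT) of each of the 82 tested potassium channel genes, arranged by family (y axis), with bars for the standard error. Black points have an unadjusted p under 0.05, and those described in the text are named. *Kcnt1* at 0.69 and *Kcna5* at −0.94 lie farthest out, and most other points lie within 0.5 of 0.

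*Kcnt1* encodes Slack, the sodium-activated potassium channel that opens when sodium accumulates during firing (chr2:25753746-25809578, plus strand). The *Atm*-WT libraries had 222, 230, 224 and 143 CPM, and the *Atm*-KO libraries 344, 267, 282 and 427 CPM. The genotypes did not overlap, although within each the spread was wide, with 32M low among *Atm*-WT and 12M high among *Atm*-KO. The means were 205 ± 41.2 and 330 ± 72.5 CPM (SD, n = 4 each), and the log2 fold change was 0.69 ± 0.17 (SE, edgeR adjusted p = 0.0969). Over the 19 alternative settings the log2 fold change ran from 0.32, with a surrogate variable in the model, to 0.86, with trends of GC content and length removed, and the adjusted p from 0.00282 in DESeq2 to 0.297 with the surrogate variable. Without library 12M it was 0.54 (adjusted p = 0.188), and without 32M 0.55 (adjusted p = 0.158). Its close relative *Kcnt2* (Slick) had a log2 fold change of −0.01 ± 0.36 (SE), and of 0.27 without 12M.

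The long non-coding RNAs that stay in the nucleus (a list of *Malat1*, *Neat1*, *Meg3*, *Rian*, *Mirg* and *Snhg11*) moved with *Kcnt1* across the libraries. All 6 were higher in *Atm*-KO at an unadjusted p under 0.05, and 1 of them, *Neat1*, passed at an adjusted p under 0.05. Their summed level was 8959, 8515, 9515 and 4777 CPM in *Atm*-WT and 15621, 10029, 10675 and 15378 CPM in *Atm*-KO. It was lowest in 32M, as *Kcnt1* was, and highest in 1M and 12M, where *Kcnt1* also stood highest. Their part in the *Kcnt1* difference was not tested.

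*Abcc8*, the sulfonylurea receptor SUR1 of ATP-sensitive potassium channels, was the only channel partner with an edgeR adjusted p under 0.1. Its levels were 43.8, 46.9, 42.1 and 33.8 CPM in *Atm*-WT and 62.8, 62.2, 56.7 and 79.1 CPM in *Atm*-KO, with no overlap and a log2 fold change of 0.65 ± 0.12 (SE, edgeR adjusted p = 0.0931). The low value in 32M and the high value in 12M are those seen for *Kcnt1*, and the log2 fold change was 0.54 without 12M (edgeR adjusted p = 0.131) and 0.56 without 32M (edgeR adjusted p = 0.158). The pore subunit with which SUR1 assembles, *Kcnj11* (Kir6.2), had 47.2, 45.9, 47.1 and 44.5 against 46.3, 49.2, 46.3 and 51.5 CPM. Here too 32M was lowest and 12M highest, over a smaller range in which the genotypes overlap, and the log2 fold change was 0.06 ± 0.06 (SE, edgeR adjusted p = 0.594).

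**Figure D3:**
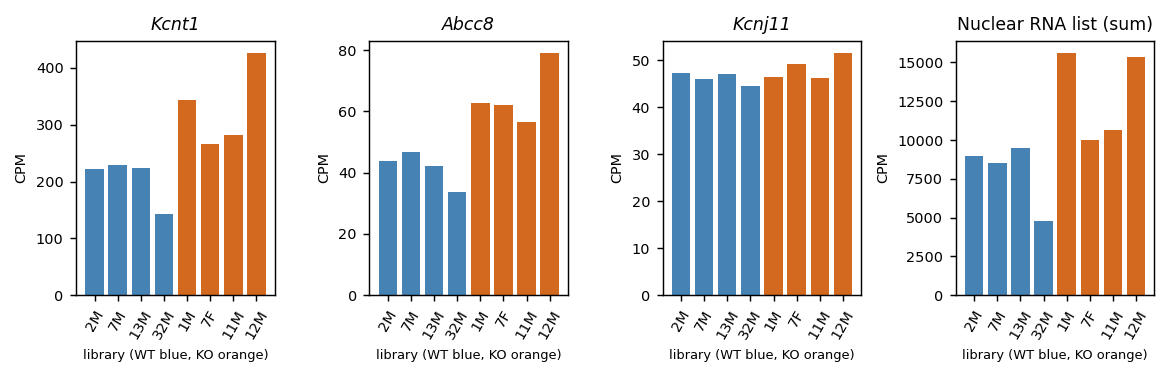
CPM (y axes, each from 0) in each library (x axes, *Atm*-WT blue, *Atm*-KO orange) of *Kcnt1*, *Abcc8*, *Kcnj11* and the sum of the 6 nuclear RNAs. All 4 are lowest in 32M, where *Kcnt1* is at 143 CPM, and the 3 genes are highest in 12M, with *Kcnj11* between 44.5 and 51.5 CPM throughout.

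*Kcng4* encodes Kv6.4, a silent Kv subunit that forms no channel alone and alters Kv2 channels by joining them (chr8:120349688-120362762, minus strand). Levels were 164, 171, 187 and 166 CPM in *Atm*-WT and 145, 148, 142 and 129 CPM in *Atm*-KO. No *Atm*-KO library reached the lowest *Atm*-WT library, and the log2 fold change was −0.28 ± 0.067 (SE, edgeR adjusted p = 0.0942). It kept its sign in all 19 alternatives, from −0.33 to −0.13, with adjusted p from 0.0136 (DESeq2) to 0.420 (trends of GC content and length removed). *Kcng4* shares 232 bases of exon with *Gm46054* on the opposite strand, and without a stated strand for the read counting, reads of the pair cannot be told apart.

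Of the Kv2 pore subunits that Kv6.4 joins, *Kcnb2* (Kv2.2), with 24.5, 34.4, 28.1 and 33.3 against 32.7, 39.0, 36.5 and 27.6 CPM and overlapping ranges, had a log2 fold change of 0.17 ± 0.13 (SE, edgeR adjusted p = 0.462). The other 9 silent subunits (3 higher and 6 lower) lay between −0.41 and 0.25, all at an unadjusted p above 0.05. With *Kcng4* counted, 3 of the 10 silent subunits were higher, against 9 with a surrogate variable in the model (median 0.35), 6 without 32M and also with GC content and length trends removed, 5 without 12M and also without 13M, and 2 without 11M, 7F or 7M.

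Among Kv1 genes all 6 tested were lower in the full comparison with TMM scaling, with a median log2 fold change of −0.09 that stayed below 0 in all 19 alternatives (−0.17 without 11M and −0.05 without 12M, up to −0.01 with GC content and length trends removed), although with library size alone 1 of the 6 was higher and with GC content and length trends removed 3 were. *Kcna2* (864.8, 939, 870 and 769 against 773, 927, 876 and 802 CPM) and *Kcna1* (341, 374, 364 and 311 against 309, 358, 340.3 and 319.9 CPM), the axonal Kv1 subunits, overlapped between the genotypes, at −0.03 ± 0.08 and −0.07 ± 0.08 (SE). *Kcna5* (Kv1.5, chr6:126509514-126512375, minus strand) was a low-level gene with 1.61, 1.28, 1.66 and 1.45 CPM in *Atm*-WT and 0.845, 0.929, 1.02 and 0.326 CPM in *Atm*-KO. The genotypes did not overlap, and the log2 fold change was −0.94 ± 0.31 (SE, edgeR adjusted p = 0.146, DESeq2 adjusted p = 0.0379, range over the alternatives 0.0379 to 0.551). Without 12M it was −0.69 (adjusted p = 0.247). All 6 markers of mural cells, the muscle cells and pericytes of vessels, were lower as well, 4 at an unadjusted p under 0.05 and 2 at an adjusted p under 0.1, and their summed level was 198 to 243 CPM in *Atm*-WT and 152 to 199 CPM in *Atm*-KO. Their part in the *Kcna5* value was not tested. Of the genes tested for Kv1 clustering on axons (*Cntnap2*, *Cntn2*, *Adam22*, *Lgi1* and 6 others), 4 were higher and 6 lower, and none had an unadjusted p under 0.05.

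Among the Kv3 genes *Kcnc1* (Kv3.1), known from fast-spiking neurons, had 649.7, 634, 605 and 588 against 628, 665, 635 and 801 CPM. Its log2 fold change was 0.14 ± 0.09 (SE, edgeR adjusted p = 0.380), and without 12M it was 0.05. *Kcnc4* stood at −0.15 and *Kcnc2* at −0.37, the latter with a standard error of 0.52 and at 0.00 without library 12M.

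Kv4 channels carry the A-type current, and their 3 genes all lay within 0.1 of 0 in the full comparison with TMM scaling. *Kcnd2* had 380.1, 468, 464 and 378 CPM in *Atm*-WT and 398, 426, 395 and 473 CPM in *Atm*-KO, with a log2 fold change of 0.00 ± 0.09 (SE). *Kcnd1* and *Kcnd3* were at 0.05 and 0.02. Their cytoplasmic partners, the KChIP proteins, were lower in 3 of 4 genes, with a median of −0.16 that stayed below 0 in all 19 alternatives (−0.19 to −0.02, and −0.06 without 12M). *Kcnip1* (chr11:33576285-33943152, minus strand) was even among replicates, at 46.4, 45.6, 44.2 and 47.3 CPM in *Atm*-WT and 37.8, 41.5, 40.2 and 35.4 CPM in *Atm*-KO. No library of one genotype fell within the range of the other. Its log2 fold change was −0.24 ± 0.068 (SE, edgeR adjusted p = 0.113, DESeq2 adjusted p = 0.0379, range over the alternatives 0.0379 to 0.473). *Kcnip4*, the most abundant KChIP gene per length, had 79.8, 86.5, 99.5 and 102 against 82.4, 92.2, 86.9 and 88.7 CPM, at −0.07 ± 0.08 (SE) and *Kcnip3* at 0.02. The membrane-spanning Kv4 partners *Dpp6* and *Dpp10* were both at −0.07.

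**Figure D4:**
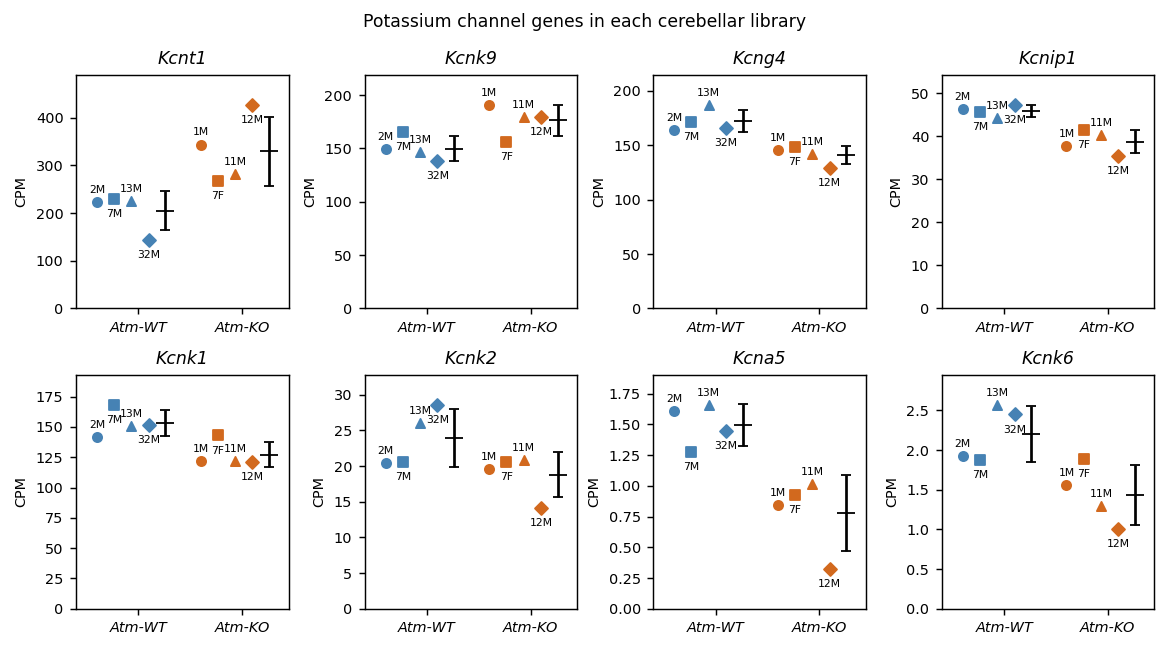
CPM (y axes, each from 0) of 8 potassium channel genes in each of the 4 *Atm*-WT (blue) and 4 *Atm*-KO (orange) libraries, with the mean and SD beside the points. In *Kcnt1*, *Kcng4*, *Kcnip1* and *Kcna5* the genotypes do not overlap. In *Kcnk1*, *Kcnk9*, *Kcnk2* and *Kcnk6* at least 1 library of one genotype lies in the range of the other.

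K2P channels pass the leak current that holds neurons at rest, and 9 of their 11 tested genes were lower, although with library size alone 6 were, with GC content and length trends removed 5 were, and without 2M, 7M or 7F 6 were. *Kcnk1* (TWIK-1, chr8:126721842-126757440, plus strand), the K2P gene with the highest level per length, had 142, 168, 151 and 152 CPM in *Atm*-WT and 122.2, 143.0, 122.2 and 121 CPM in *Atm*-KO. Library 7F lay just above the lowest *Atm*-WT library, and the other 3 lay below all of them. The log2 fold change was −0.27 ± 0.075 (SE, edgeR adjusted p = 0.113, DESeq2 adjusted p = 0.0425, range over the alternatives 0.0425 to 0.412). *Kcnk9* (TASK-3, the acid-sensitive leak channel of granule cells, chr15:72372938-72419556, minus strand) went the other way, with 150, 165, 147 and 138 CPM in *Atm*-WT and 191, 156, 179.5 and 179.2 CPM in *Atm*-KO. Only 7F lay inside the *Atm*-WT range, and the log2 fold change was 0.23 ± 0.077 (SE, edgeR adjusted p = 0.141). *Kcnk3* (TASK-1), with which TASK-3 can assemble, was at −0.02, and the summed level of the 6 granule cell markers was 4682 to 5670 CPM in *Atm*-WT and 4948 to 6771 CPM in *Atm*-KO. Their part in the *Kcnk9* value was not tested.

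The remaining K2P genes with an unadjusted p under 0.05 were *Kcnk2* (TREK-1, opened by stretch and lipids) and *Kcnk6* (TWIK-2). *Kcnk2* had 20.4, 20.5, 26.1 and 28.5 CPM against 19.6, 20.6, 20.9 and 14.1 CPM, a log2 fold change of −0.34 ± 0.15 (SE, edgeR adjusted p = 0.215) that was −0.23 without 12M. *Kcnk6* had 1.93, 1.88, 2.56 and 2.45 CPM against 1.56, 1.89, 1.29 and 1.01 CPM, at −0.62 ± 0.23 (SE, edgeR adjusted p = 0.173). All 6 microglia markers were lower too, 4 at an unadjusted p under 0.05, with a summed level of 130 to 171 CPM in *Atm*-WT and 101 to 133 CPM in *Atm*-KO. The part of these and of the mural cell markers in the *Kcnk6* value was not tested. In both genes library 7F reached into the *Atm*-WT range, and in *Kcnk2* 11M did as well. *Kcnk10* (TREK-2), with 160.1, 153.4, 152 and 115 against 155, 153.2, 142 and 188 CPM, was at 0.14 ± 0.11 (SE), and 0.05 without 12M.

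Of the 11 inward rectifier genes tested, 5 were higher and 6 lower in the full comparison with TMM factors, with a median close to 0. This count moved with the settings, as 10 of 11 were higher without 12M (median 0.06) and with GC content and length trends removed (median 0.12), 9 with a surrogate variable and 8 with library size alone. *Kcnj10*, the astrocyte channel that clears potassium from the extracellular space, had 292, 326, 268 and 308 CPM in *Atm*-WT and 259, 337, 311 and 219.9 CPM in *Atm*-KO, so the genotypes overlapped widely (−0.08 ± 0.12, SE). The GIRK subunits, which open when G-protein-coupled receptors such as the GABA-B receptor are activated, were *Kcnj3* at 0.05, *Kcnj6* at 0.07 and *Kcnj9* at 0.16 on the log2 scale, while *Kcnj5*, below 1 CPM in all 8 libraries, was at −0.07 ± 0.48 (SE). *Kcnj6* (GIRK2) had 51.2, 60.3, 50.4 and 44.3 CPM in *Atm*-WT and 51.5, 59.4, 52.7 and 52.4 CPM in *Atm*-KO, all of the latter inside the range of the former. *Kcnj9* had 108, 91.7, 93.0 and 80.4 CPM against 105, 103, 94.7 and 115 CPM (edgeR adjusted p = 0.341). Among 7 genes for the GABA-B receptor and its GIRK regulators 2 were higher and 5 lower, none at an unadjusted p under 0.05.

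Of the 8 genes for calcium- and sodium-activated pores, *Kcnt1* was higher and 7 were lower, none of the 7 at an unadjusted p under 0.05, and with library size alone or with GC content and length trends removed 3 were lower. *Kcnma1*, the BK pore, had 562, 659, 624 and 486 CPM in *Atm*-WT and 527, 616, 569 and 588 CPM in *Atm*-KO (−0.02 ± 0.10, SE). *Kcnn2* had 35.4, 35.0, 38.6 and 35.9 against 36.7, 37.9, 36.9 and 31.7 CPM (−0.02 ± 0.07, SE). The other small- and intermediate-conductance genes, *Kcnn1*, *Kcnn3* and *Kcnn4*, stood at −0.12 ± 0.13, −0.15 ± 0.10 and −0.30 ± 0.43 (SE). The BK beta subunit of neurons, *Kcnmb4*, had 31.3, 22.9, 27.4 and 28.8 against 23.3, 27.0, 22.5 and 29.1 CPM, at −0.12 ± 0.11 (SE).

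The Kv7 genes, whose M-current dampens repeated firing, and the EAG, ERG and ELK genes held no member with an unadjusted p under 0.05. *Kcnh1* (EAG1) had 132, 131, 139 and 122 against 130.0, 125, 113 and 128 CPM, at −0.08 ± 0.07 (SE). The ranges overlapped. *Kcnh3* (an ELK gene) was at a low level, with 1.003, 1.44, 1.36 and 1.35 against 2.07, 1.99, 1.41 and 1.11 CPM, and at 0.35 ± 0.24 (SE, edgeR adjusted p = 0.445).

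The Kv beta subunits, cytoplasmic proteins that speed the inactivation of Kv1 channels or help them reach the membrane, were lower in all 3 genes, with a median of −0.17. It was −0.10 without 12M, where 1 of the 3 was higher, −0.11 without 32M, −0.32 without 11M, −0.05 with GC content and length trends removed and 0.03 with a surrogate variable in the model. Of the 3, *Kcnab2* had the highest level per kb of exon, but with the longest transcript as length *Kcnab1* stood higher (38.3 against 31.4). *Kcnab2* had 169, 158, 164 and 189 CPM in *Atm*-WT and 138, 161, 178 and 107 CPM in *Atm*-KO. Libraries 7F and 11M lay inside the *Atm*-WT range, and the log2 fold change was −0.22 ± 0.13 (SE, edgeR adjusted p = 0.363), against −0.10 without 12M. *Kcnab1* was at −0.10 and *Kcnab3* at −0.17.

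The KCNE subunits are single-span partners that slow or speed the gating of Kv channels, and the 3 tested were lower in all 19 alternatives by their median (−0.57 to −0.20, against −0.47 in the full comparison and −0.29 without 32M). *Kcne5*, an X-linked gene, had 5.15, 3.57, 4.85 and 6.20 CPM against 4.09, 4.26, 3.35 and 3.08 CPM (−0.42 ± 0.19, SE, edgeR adjusted p = 0.243), with 1M and 7F inside the *Atm*-WT range. *Kcne2* had 12.7, 15.2, 5.78 and 9.21 CPM in *Atm*-WT and 3.94, 7.71, 6.51 and 9.55 CPM in *Atm*-KO (−0.63 ± 0.30, SE, edgeR adjusted p = 0.264). Its ranges overlapped, and its lowest library was 1M. *Kcne2* is also expressed in the choroid plexus, the ventricular tissue that makes cerebrospinal fluid, and the summed level of 5 choroid plexus markers was 764 to 1527 CPM in *Atm*-WT and 414 to 1190 CPM in *Atm*-KO, lowest in 1M and highest in 2M. All 5 markers were lower in *Atm*-KO, 2 at an unadjusted p under 0.05. Their part in the *Kcne2* value was not tested, and in bulk tissue fewer cells of a type and less RNA per cell cannot be told apart.

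*Kcnrg*, which encodes a protein with a Kv assembly domain that holds Kv channels back inside the cell, had 0.739, 0.725, 0.711 and 0.595 CPM in *Atm*-WT and 0.857, 0.929, 0.903 and 1.08 CPM in *Atm*-KO. The genotypes did not overlap at this low level, and the log2 fold change was 0.44 ± 0.22 (SE, edgeR adjusted p = 0.287). Its exons share 706 bases with *Dleu2* on the opposite strand. The same holds for many members, since 42 of the 82 tested overlap an exon on the other strand.

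Across all 82 tested members, 60 were lower in *Atm*-KO and 22 higher, which is 73.2% lower against 53.1% of all genes and 63.8% of protein-coding genes. The median log2 fold change was −0.07, against −0.02 over all genes and −0.06 over protein-coding genes. Library by library, the median over the members relative to the *Atm*-WT mean was −0.03, 0.02, −0.01 and 0.04 in *Atm*-WT and −0.11, 0.04, 0.03 and −0.29 in *Atm*-KO. Only 1M and 12M lay below the *Atm*-WT libraries, and 7F and 11M lay among them. Without 12M, 42 of 82 members were lower (51.2%, against 51.0% of all genes) and the median was −0.01, while without 32M the median was −0.07. It was 0.04 both with a surrogate variable and with trends of GC content and length removed, where all genes stood at 0.01 and 0.04. The 68 tested pore-forming genes had a median of −0.05 and the 14 auxiliary genes −0.15, and the 38 members below 10 CPM had −0.11 against −0.07 for the 44 at or above it.

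*Atm*-KO library 12M was the lowest of the 8 in 45 of 82 members (54.9%), against 23.0% of all genes. In 11 members (13.4%, against 2.58% of all genes) it lay below 50% of every other library, and no other library did so for any member, although 32M did so for 3.15% of all genes. This measure was chosen after the values were seen and is a description. The 11 genes were *Kcna5*, *Kcnc2*, *Kcnf1*, *Kcng1*, *Kcnh5*, *Kcnh8*, *Kcnip2*, *Kcnj4*, *Kcnk15*, *Kcnq5* and *Kcnt2*, which come from 9 of the families.

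*Kcnc2* (Kv3.2) was at 3.42 CPM in 12M and between 34.7 and 54.2 CPM in the other 7 libraries, which is 9.86% of the lowest of them. *Kcnh5* (EAG2) was at 1.41 against 16.6 to 24.6 CPM, and *Kcnip2* (KChIP2) at 1.32 against 6.51 to 9.80 CPM. *Kcng1* (Kv6.1) was at 0.0592 against 0.484 to 1.26 CPM. Without 12M the log2 fold changes of these 4 genes were 0.00, 0.10, −0.04 and 0.27, so their values of −0.37, −0.28, −0.37 and −0.11 in the full comparison rested on that library. *Kcna5* was the exception, as its difference without 12M was −0.69 with an unadjusted p of 0.0125.

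The markers that stood low in the same library were *Slc17a6*, the vesicular glutamate transporter of deep nuclear neurons, at 4.32 CPM in 12M against 73.6 to 116 CPM elsewhere, and *Spp1* at 8.48 against 17.3 to 28.4 CPM. *Slc6a5*, the glycine transporter of inhibitory neurons of the nuclei and cortex, was at 55.2 CPM in 12M against 49.1 to 64.8 CPM. The summed level of the deep nuclei and brainstem list, in which 4 of 6 markers were tested and all 4 were lower (*Pvalb*, also a Purkinje cell marker, at −0.29 and an edgeR adjusted p of 0.0942), was 503 to 544 CPM in *Atm*-WT and 355 to 460 CPM in *Atm*-KO, with 12M lowest. Without *Pvalb*, which made up most of it, the sum was 158 to 190 CPM in *Atm*-WT and 144, 168, 195 and 68.1 CPM in *Atm*-KO, so that the genotypes overlapped and 12M stood apart. The 6 oligodendrocyte markers summed to 1926 CPM in 12M against 3056 to 4201 CPM, whereas the granule and Purkinje cell markers *Gabra6* and *Calb1* were at 707 and 1093 CPM in 12M, within or above the range of the others. Partners of the channels that were also low in 12M were *Hcn4* (4.46 against 9.78 to 13.8 CPM) and *Kctd16* (4.46 against 9.55 to 13.7 CPM). The part of these markers in the low values was not tested.

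**Figure D5:**
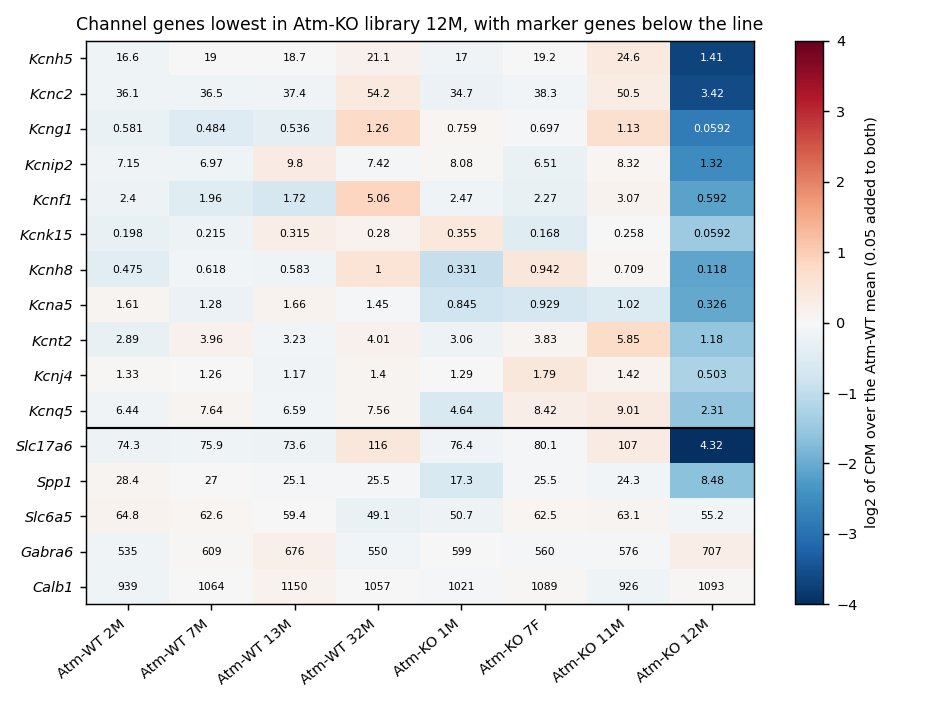
CPM (numbers) of the 11 potassium channel genes that lay below 50% of every other library in *Atm*-KO 12M (rows above the line) and of 5 marker genes (below it) in each library (columns), coloured by the log2 ratio to the *Atm*-WT mean with 0.05 added to both. *Kcnc2* is at 3.42 and *Slc17a6* at 4.32 CPM in 12M, while *Gabra6* and *Calb1* are not low there.

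Library 32M was at the other end for part of these genes. It was the highest of the 8 libraries in 20 members (24.4%, against 21.1% of all genes), *Kcnc2* (54.2 CPM), *Kcng1* (1.26 CPM) and *Kcnf1* (5.06 CPM) among them, and also had the highest *Slc17a6* (116 CPM). *Atm*-KO library 11M, with the next highest *Slc17a6* (107 CPM), also had the next highest *Kcnc2* (50.5 CPM).

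Of the 34 channel partners without a *Kcn* symbol, which were sulfonylurea receptors, Kv4, Kv1, Kv2 and Kv7 partners, BK gamma subunits, GABA-B receptor genes and the HCN pacemaker channels, 33 were tested. They counted 11 higher and 22 lower, with a median log2 fold change of −0.04. In edgeR none passed at an adjusted p under 0.05, and at an unadjusted p under 0.05 there were 3 higher (*Abcc8*, the BK gamma subunit gene *Lrrc26* and *Sptbn4*, the spectrin that anchors Kv7 channels at the axon initial segment) and 0 lower. DESeq2 gave *Abcc8* an adjusted p of 0.000242, where 7.49% of all genes were under 0.05, and *Lrrc26* and *Sptbn4* 0.0531 and 0.0770. The 3 are 9.09% of the partners tested, against 11.7% of all genes and 7.003% of protein-coding genes. *Sptbn4* was at 0.25 on the log2 scale (129, 111, 105 and 101 against 122, 136, 133 and 141 CPM).

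Some properties of the members that the comparison did not use were set beside their genotype difference. Over the 82 members Spearman's rho with the log2 fold change was 0.18 for mean level, 0.13 for gene span, 0.30 for exon length and −0.09 for GC content of the exons. These are descriptions across genes that share the same 8 libraries, and genes are not independent replicates.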

How the data were processed

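Per the labels and the study's methods, RNA from frozen cerebellum was sequenced on an Illumina instrument, checked with FastQC 0.11.9, aligned with STAR and counted per gene with featureCounts (GRCm39), and the authors deposited the raw counts. Versions of the last tools, and the strand and pairing settings, are not given in the sources used here. Even numbers made up 67.3 to 73.3% of the low counts (1 to 50) of a library, and whether reads or fragments were counted is likewise not given, so a fragment may have entered a count as both of its reads and a printed count may exceed the number of fragments. The labels set the 4 *Atm*-WT and 4 *Atm*-KO libraries. Of the 56691 identifiers, 56017 were found in GENCODE vM39, which gave symbols, exon lengths and positions.

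The count table was fitted whole with edgeR 4.0.16 (R 4.3.3) using filterByExpr, TMM factors and the quasi-likelihood test, two-sided, with Benjamini-Hochberg adjustment over the 22423 genes kept and a call at an adjusted p under 0.05. CPM values carry the TMM factors. DESeq2 1.42.0, limma 3.58.1 (voom), a surrogate variable from sva 3.50.0, other scalings, other filters, trends of GC content and length removed, and leaving out each library were run as 17 alternatives, and 2 more (32M and 7F left out together, and protein-coding genes alone) were added after seeing the data. The fit was tested on simulated data. Values are given per library for members with an adjusted p under 0.1, in each direction the 8 lowest p-values among those with a mean of at least 1 CPM, the leading member of each family per length, and members known from the cerebellum. *Kcnc2*, *Kcnh5*, *Kcnip2*, *Kcng1* and other members low in 1 library were named after their values were seen. Some members that this rule names are not reported here. The members and all lists were chosen with earlier results of these data known. Libraries held 65967130 to 88030300 counts.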

Additional observations from a re-analysis of the deposited data

Results flagged for a closer look

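Within each genotype the 4 libraries of every tested potassium channel gene were checked for 1 library that lay far from the other 3, by Dixon's test at the 95% level. It marked 10 of 164 groups of 4, and chance marks about 1 in 20, which is 8.2 here. *Atm*-WT library 32M stood high in *Kcnc2* (54.2 CPM, others 36.1 to 37.4) and *Kcng1* (1.26, others 0.484 to 0.581) and low in *Kcnt1* (143, others 222 to 230). *Atm*-WT library 13M stood low in *Kcnh6* (0.781 CPM, others 1.11 to 1.16) and *Kcnk4* (0.688, others 1.12 to 1.19) and high in *Kcnip2* (9.80, others 6.97 to 7.42). *Atm*-KO library 12M stood low in *Kcng2* (0.651 CPM, others 1.47 to 1.62) and *Kcns3* (0.785, others 2.11 to 2.23), both silent Kv subunits. *Atm*-KO library 7F stood high in *Kcnj6* (59.4 CPM, others 51.5 to 52.7) and *Kcnk1* (143.0, others 121 to 122.2). The last of these is the library that brought *Kcnk1* of the *Atm*-KO group into the *Atm*-WT range.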

How the results depend on the processing

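The number of potassium channel genes with an adjusted p under 0.05 was 0 with edgeR, 5 with DESeq2 and 1 (*Kcnt1*) with no filter on low counts, and 0 in all fits that left out 1 library (0 to 0). At an adjusted p under 0.1 it was 2 with edgeR, 7 with DESeq2, 0 with voom and with a surrogate variable, and 0 to 5 in the fits that left out 1 library. DESeq2 called 1552 of all genes where edgeR called 4. The median log2 fold change of the members ran from −0.15 without 11M to −0.01 without 12M, and was 0.04 with a surrogate variable and with trends of GC content and length removed. Fits that left out a library kept 3 libraries of one genotype. No paired analysis was possible because the genotypes share only the number 7 in their library names and the labels pair no animals. Counts below about 1 CPM, where 15 of the tested members lie, give wide errors, and no call of these members was made in edgeR.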
